A study of Ginkgo biloba with 2 samples.

Results

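The miR159 family was followed in leaf small RNA of Ginkgo biloba, a gymnosperm tree. Members were all miR159 names of the deposited count table, with any species prefix, letter or hairpin arm and no other number after miR. Of the 467 names in the table, 22 met this rule, and they carry the prefixes of 11 other plant species, since the authors gave ginkgo reads the names of known miRNAs. The study compared normal green leaves with leaves of a gold-coloured mutant, in 1 small RNA library each. Leaves of both kinds were taken from an adult tree under natural conditions. The sample label calls the mutant leaves yellow, whereas the collection text calls them striped, so green tissue can be part of that library. The extraction text speaks of cambium, although both samples are labelled as leaf, and the table holds no marker by which the tissue could be checked.

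MicroRNAs of the miR159 family pair with messenger RNAs of GAMYB-type MYB transcription factors and direct their cleavage. GAMYB was described in cereals as an activator of gibberellin-induced genes in the seed aleurone, and GAMYB-like proteins also act in anther development. In leaves of Arabidopsis, miR159 keeps GAMYB-like genes almost silent, and plants that lack it have small, curled leaves. miR319 is related to miR159 in sequence and is known mainly for its TCP transcription factor targets, while miR828 and miR858 pair with other MYB genes.

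The column total was 2084893 reads for green leaves and 2793966 for yellow leaves. Values are given as CPM, counts per 1000000 reads of the column, and as the ratio of yellow over green CPM. Each bracketed range is a 95% exact (Clopper-Pearson) interval. With 1 library per leaf type there was no replicate spread and no p-value, so the intervals cover counting error only and compare these libraries, not the leaf types. The reads carry no molecular identifiers, so they are not independent molecules, and a read can be counted under several names of a family. Over the 306 names with at least 20 reads in both libraries together, the median log2 ratio was -0.43. Other scalings moved every ratio up by the same factor, by 1.20 (total without the most-read name), 1.34 (DESeq2 median of ratios) or 1.38 (edgeR TMM). By median of ratios the size of the yellow over the green library was 1, so those ratios are ratios of raw counts.

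Among the 61 numbered miRBase families of the table, miR159 was the third by summed reads in both libraries. Its 22 names summed to 26222 green-leaf and 54765 yellow-leaf reads. That is 1.26% (1.24 to 1.27) of the green column and 1.96% (1.94 to 1.98) of the yellow column, and the yellow share was higher by a ratio of 1.56 (1.54 to 1.58). Of the reads under miRBase names alone, the family held 3.59% in green and 6.18% in yellow leaves. Because a read may stand under several names, the sum is an upper figure for the family's reads. A lower figure for the reads is the most-read name alone. The ratio of that name was 1.81, which is no lower limit for the family's ratio.

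pta-miR159a, named after loblolly pine (Pinus taeda), was the most-read member. It had 10683 green-leaf and 25949 yellow-leaf reads, or 5124 CPM (5028 to 5222) and 9288 CPM (9175 to 9401). Its ratio was 1.81 (1.77 to 1.85), and it was at rank 22 of the 467 names in green and at rank 17 in yellow leaves. It held 40.7% of the family's summed reads in green leaves and 47.4% in yellow ones.

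The next 4 names lay close together. sof-miR159c, a sugarcane name, had 3497 green-leaf and 6127 yellow-leaf reads, at 1677 CPM (1622 to 1734) and 2193 CPM (2138 to 2248). pta-miR159c had 3076 and 5523 reads, at 1475 CPM (1424 to 1528) and 1977 CPM (1925 to 2030). pde-miR159, named after the pine Pinus densata, had 3074 and 6704 reads, at 1474 CPM (1423 to 1527) and 2399 CPM (2342 to 2458). In green leaves the last 2 differed by less than counting error, and in yellow leaves pde-miR159 stood above both of the others. mdm-miR159a, an apple name, had 2890 and 5030 reads, at 1386 CPM (1336 to 1438) and 1800 CPM (1751 to 1851). Its green interval overlapped those of pta-miR159c and pde-miR159, and its yellow interval overlapped none of them. Together with pta-miR159a these names held 88.6% of the family's green and 90.1% of its yellow reads.

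osa-miR159f (rice) and bdi-miR159a-3p (Brachypodium) formed a lower pair. osa-miR159f stood at 388 CPM (361 to 415) and 603 CPM (575 to 633), from 808 and 1685 reads. bdi-miR159a-3p stood at 377 CPM (352 to 405) and 578 CPM (550 to 607), from 787 and 1615 reads. Their intervals overlapped each other in both libraries. 4 names followed near 100 CPM, and these were osa-miR159c with 228 and 435 reads, ath-miR159c (Arabidopsis) with 204 and 343, osa-miR159e with 197 and 340, and osa-miR159d with 191 and 316. Their green intervals overlapped, and in yellow leaves osa-miR159c, at 156 CPM (141 to 171), lay above the other 3.

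The lowest counted names were aqc-miR159, a columbine name with 173 green-leaf and 147 yellow-leaf reads, zma-miR159e-3p, a maize name with 115 and 158, and a set of 4 nearly equal ones. ath-miR159a had 76 and 100 reads, and ath-miR159b-3p had 74 and 96. osa-miR159a.1 and lus-miR159b, a flax name, both had 73 and 94. These 4 names spanned 3 green-leaf and 6 yellow-leaf reads, so they add little to one another as measurements. The remaining 5 members had few reads, 3 in green and 9 in yellow leaves in all. bdi-miR159c had 2 and 3 reads, a ratio of 1.12 (0.128 to 13.4), and pta-miR159b had 1 and 3, a ratio of 2.24 (0.18 to 117.5). bdi-miR159a-5p, gma-miR159b-3p (soybean) and zma-miR159c-5p had no read in green and 1 in yellow leaves, so no ratio is given. A count of 0 was taken to allow up to 3 reads (1.44 CPM in green), a one-sided limit, unlike the bracketed ranges. The 2 names of the 5p arm were thus at this floor, and no other member is labelled 5p.

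**Figure D1:**
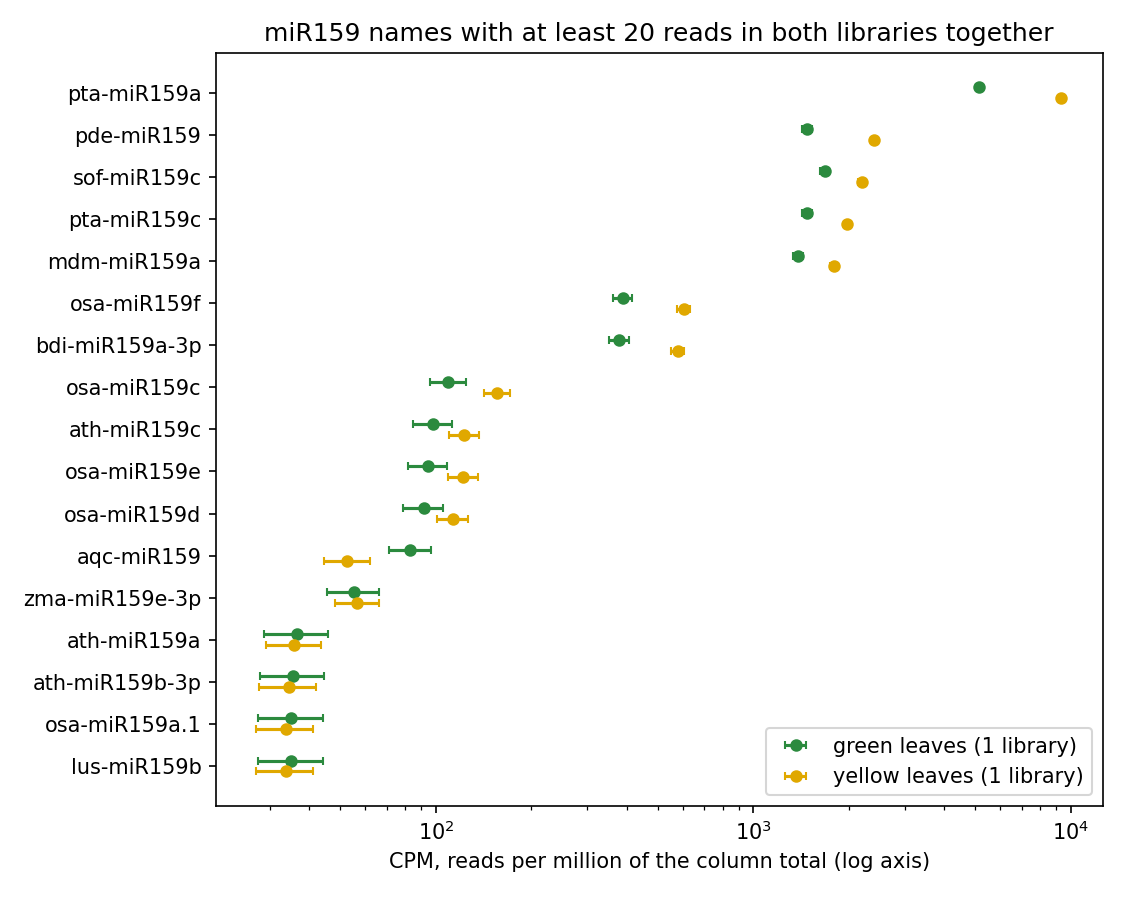
CPM (log axis) of the 17 miR159 names with at least 20 reads, in green and yellow leaves, 1 library each; points are values and bars are 95% exact counting intervals. pta-miR159a stood highest at 5124 and 9288 CPM, and aqc-miR159 was the name whose yellow interval lay wholly below its green interval.

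The comparison of yellow with green leaves gave a graded pattern within the family. After pta-miR159a, the highest ratio was that of pde-miR159, at 1.63 (1.56 to 1.70). osa-miR159f followed at 1.56 (1.43 to 1.69) and bdi-miR159a-3p at 1.53 (1.41 to 1.67). osa-miR159c stood at 1.42 (1.21 to 1.68). Lower ratios were found for pta-miR159c, at 1.34 (1.28 to 1.40), sof-miR159c, at 1.31 (1.25 to 1.36), and mdm-miR159a, at 1.30 (1.24 to 1.36). For osa-miR159e the ratio was 1.29 (1.08 to 1.54), for ath-miR159c 1.25 (1.05 to 1.499) and for osa-miR159d 1.23 (1.03 to 1.49). All of these intervals lay above 1.

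The ratios of zma-miR159e-3p, at 1.03 (0.801 to 1.32), and of the 4 nearly equal names, from 0.961 to 0.982, had intervals that included 1. Scaled by the total, aqc-miR159 was the single member whose interval lay below 1. It stood at 83.0 CPM (71.1 to 96.3) in the green library and at 52.6 CPM (44.5 to 61.8) in the yellow one, a ratio of 0.634 (0.505 to 0.795). In all, 12 of 17 names had a ratio above 1, against 34.6% of the 306 names, and 11 had an interval above 1, against 25.8%. The interval lay below 1 for 1 of 17 members, against 49.0% of the table. With the other 3 scalings 16 of 17 members were above 1, against 42.8% of all names without the most-read name, 47.1% by median of ratios and 50.7% by TMM. aqc-miR159 was the exception, but its interval then included 1 by TMM, at 0.877 (0.699 to 1.099), and by median of ratios, at 0.850 (0.677 to 1.065). Without the most-read name its interval stayed below 1, at 0.762 (0.607 to 0.955).

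By the size rule, a change of at least 2-fold with an interval that leaves out 1, no member was higher and none was lower when scaled by the total, where 12.1% of the 306 names were higher and 24.8% lower. Both median-of-ratios and TMM scaling placed 4 members above the 2-fold limit, namely pta-miR159a, pde-miR159, osa-miR159f and bdi-miR159a-3p. 19.6% and 20.9% of all names passed it in that direction under these scalings. pta-miR159a reached 2.43 by median of ratios, 2.51 by TMM and 2.18 without the most-read name, where it was the only member called and the share of all names was 16.3%. No member was 2-fold lower under these scalings, where 16.3% (TMM), 17.6% (median of ratios) and 20.9% (without the most-read name) of all names were. With a limit of 1.5-fold, scaled by the total, the same 4 members were higher, against 18.0% of the 306 names, and aqc-miR159 was lower, against 34.3%.

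A member's distance from the table's median is the same under every common scaling. By this measure 16 of 17 members lay above the median, by 0.38 to 1.29 on the log2 scale. aqc-miR159 lay below it, at -0.22. The family's median log2 ratio was 0.36 scaled by the total, beside -0.43 over the 306 names.

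**Figure D2:**
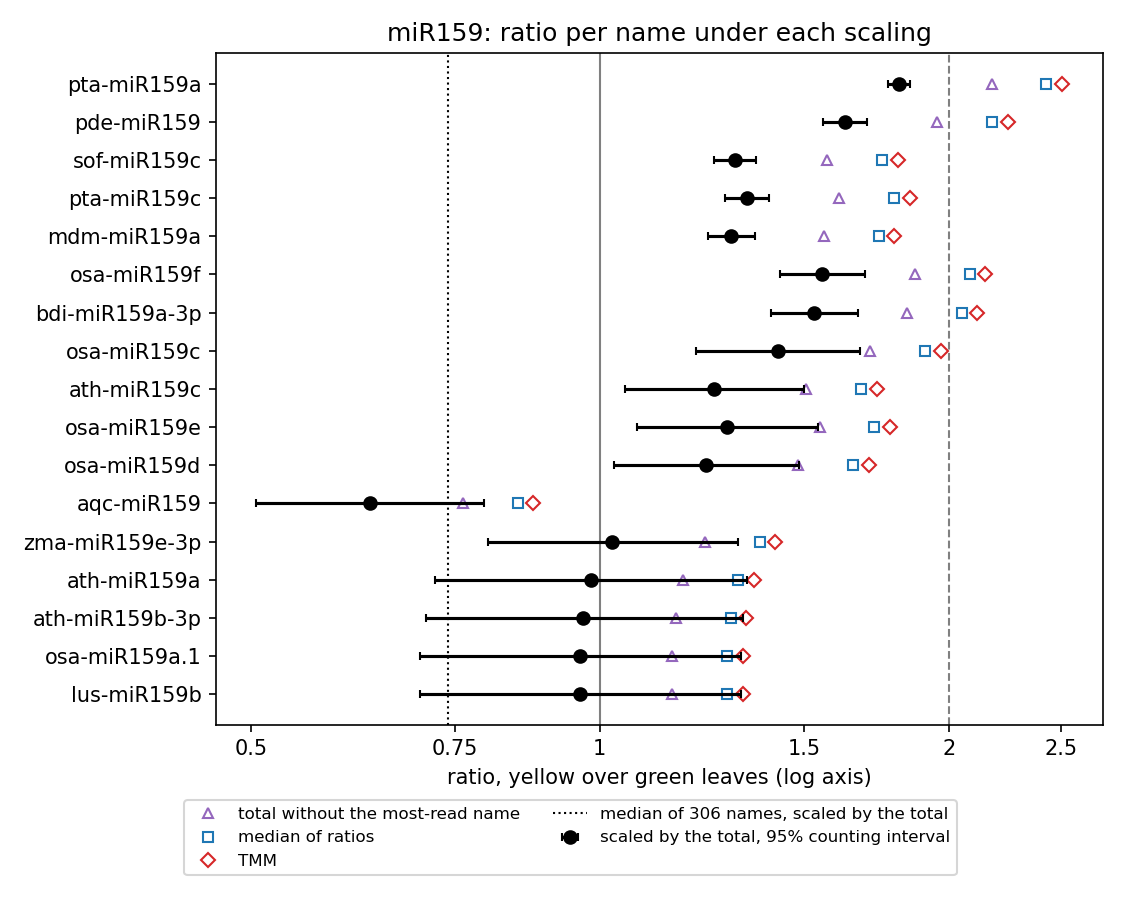
Ratio of yellow over green leaves (log axis) for the 17 counted miR159 names under each scaling; bars are 95% counting intervals for scaling by the total, the dashed line marks 2-fold and the dotted line the median of 306 names. Names are ordered by reads, and the ratio runs from 1.81 for pta-miR159a to 0.634 for aqc-miR159, with 4 names above 2-fold under TMM.

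Differences between members do not depend on the scaling. Each of the other 16 counted names was set against pta-miR159a by the odds ratio of their reads. All 16 were below 1 with an interval below 1, so each had a lower ratio than pta-miR159a between these libraries. The odds ratio was 0.898 (0.855 to 0.943) for pde-miR159, the nearest, and 0.739 (0.703 to 0.777) for pta-miR159c. For lus-miR159b and osa-miR159a.1 it was 0.530 (0.386 to 0.731), and for aqc-miR159 it was 0.350 (0.279 to 0.439). Where names share reads these intervals are approximate.

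By classes of reads, the ratios overlapped in the upper classes and, aqc-miR159 aside, were lower in the least-read one. The intervals in the least-read class overlapped that of zma-miR159e-3p in the class above, so the step was not beyond counting error. The 7 names with at least 1000 reads had ratios of 1.30 to 1.81, and the 4 names with 167 to 176 reads had 0.961 to 0.982. Between them, 5 of the 6 names with 273 to 663 reads ran from 1.03 to 1.42, and aqc-miR159 was the sixth. The order within and across classes was not by reads, since osa-miR159c, with 663 reads, had a higher ratio than sof-miR159c, with 9624. The read classes were set after the values were seen. The names were also summed by plant group. The 4 Pinus names, from conifers, which are gymnosperms like ginkgo, held 64.2% of the family's summed reads in the green library and 69.7% in the yellow one, at a ratio of 1.69 (1.66 to 1.72). The higher yellow share came from pta-miR159a, since the share of the other 3 Pinus names was 23.5% in the green library and 22.3% in the yellow one. The 11 grass names held 22.5% and 19.7%, at 1.36 (1.32 to 1.41), and the 7 eudicot names 13.3% and 10.6%, at 1.24 (1.19 to 1.30). The prefix names the species in which a sequence was catalogued, and all reads are from ginkgo.

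**Figure D3:**
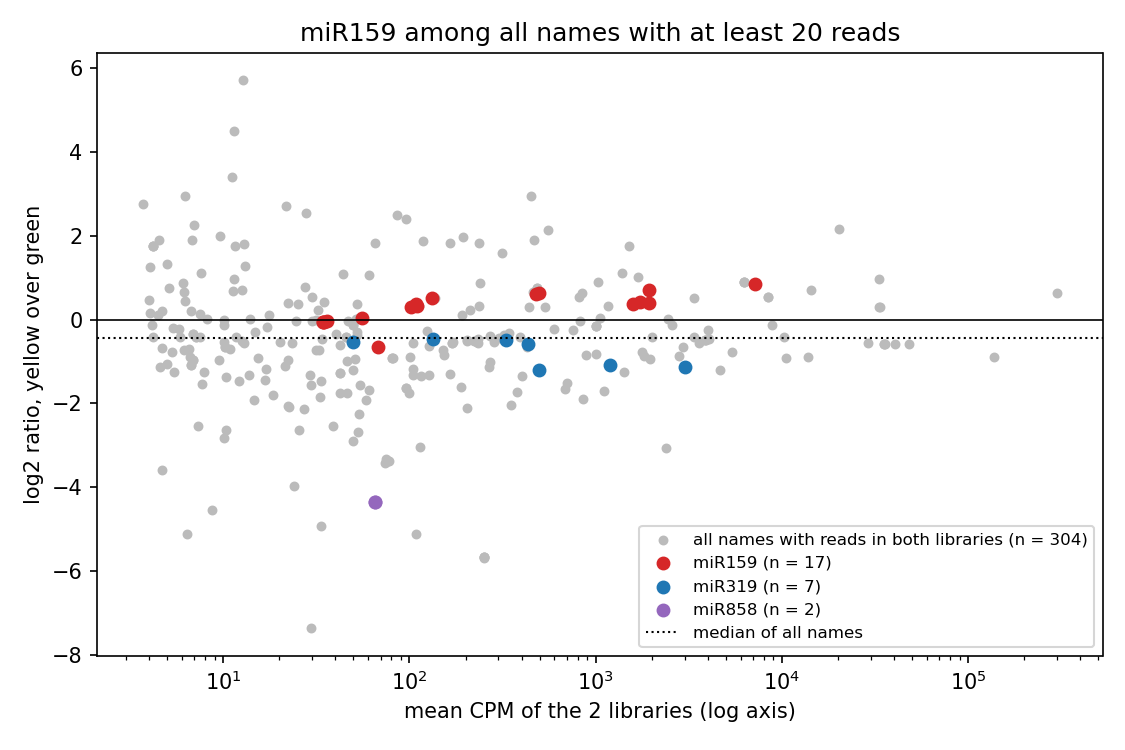
Log2 ratio of yellow over green, scaled by the total, against mean CPM (log axis) for the 304 names with at least 20 reads in all and reads in both libraries; miR159, miR319 and miR858 names are coloured and the dotted line is the table's median of -0.43. The miR159 names sit above that line except aqc-miR159, and the 7 miR319 names sit below it.

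The other families related to MYB genes or to miR159 had lower ratios or too few reads. The most-read miR319 name, mtr-miR319a-3p, had 8610 green-leaf and 5287 yellow-leaf reads, and the ratio of pta-miR159a was 3.96 times its ratio (3.80 to 4.12). Summed over names, the library held 1.66 miR159 reads per miR319 read in green and 5.24 in yellow leaves, a balance that needs no scaling. ath-miR858a had 261 and 17 reads, a gap to pta-miR159a of 37.3 times (22.8 to 65.0). The ratio of vvi-miR828a was 1.12 (0.421 to 3.16), from 8 and 12 reads, which were too few to place it against miR159. Among the 103 names outside the family with at least 1000 reads, the ratios nearest to pta-miR159a were those of novel_194, a miRNA that the authors only numbered, at 1.83 (1.62 to 2.08), and of ath-miR396a-5p and zma-miR396g-3p, which had equal counts, at 1.85 (1.81 to 1.90).

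The deposited target table listed 81 predicted target genes for miR159, in 266 pairs of name and gene, and all 22 names had targets. It names ginkgo genes by ID and gives the best protein match of each, and a match is no proof of the same role in ginkgo. 63 of the 81 genes had a match. 4 of them matched GAMYB, which is 6.35% of the 63, while 1.28% of all matched genes in the target table had a MYB or GAMYB match. No other gene of the table matched GAMYB. All 4 GAMYB matches were also listed for miR319 names. They made up 9.09% of the 44 miR319 genes and 4.94% of the 81 miR159 genes. None of the 22 other MYB matches was listed for a miR159 or miR319 name, while 14 of them were listed for miR858 names and 9 for the miR828 name.

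Gb_11536, Gb_23921 and Gb_34464 were each listed for the same 19 miR159 names. The 3 names left out were aqc-miR159 and the 2 names of the 5p arm. In the authors' deposited table the E-value of the GAMYB match was 7.74e-102 for Gb_11536, 3.41e-61 for Gb_23921 and 5.40e-29 for Gb_34464, the strongest match being that of Gb_11536. The 19 names held 99.3% of the family's reads in green and 99.7% in yellow leaves. The fourth match, Gb_09998, with an E-value of 2.84e-31 in the authors' deposited table, was listed for pta-miR159a and aqc-miR159 alone. These held 41.4% of the family's reads in green and 47.7% in yellow leaves, nearly all of them from pta-miR159a.

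**Figure D4:**
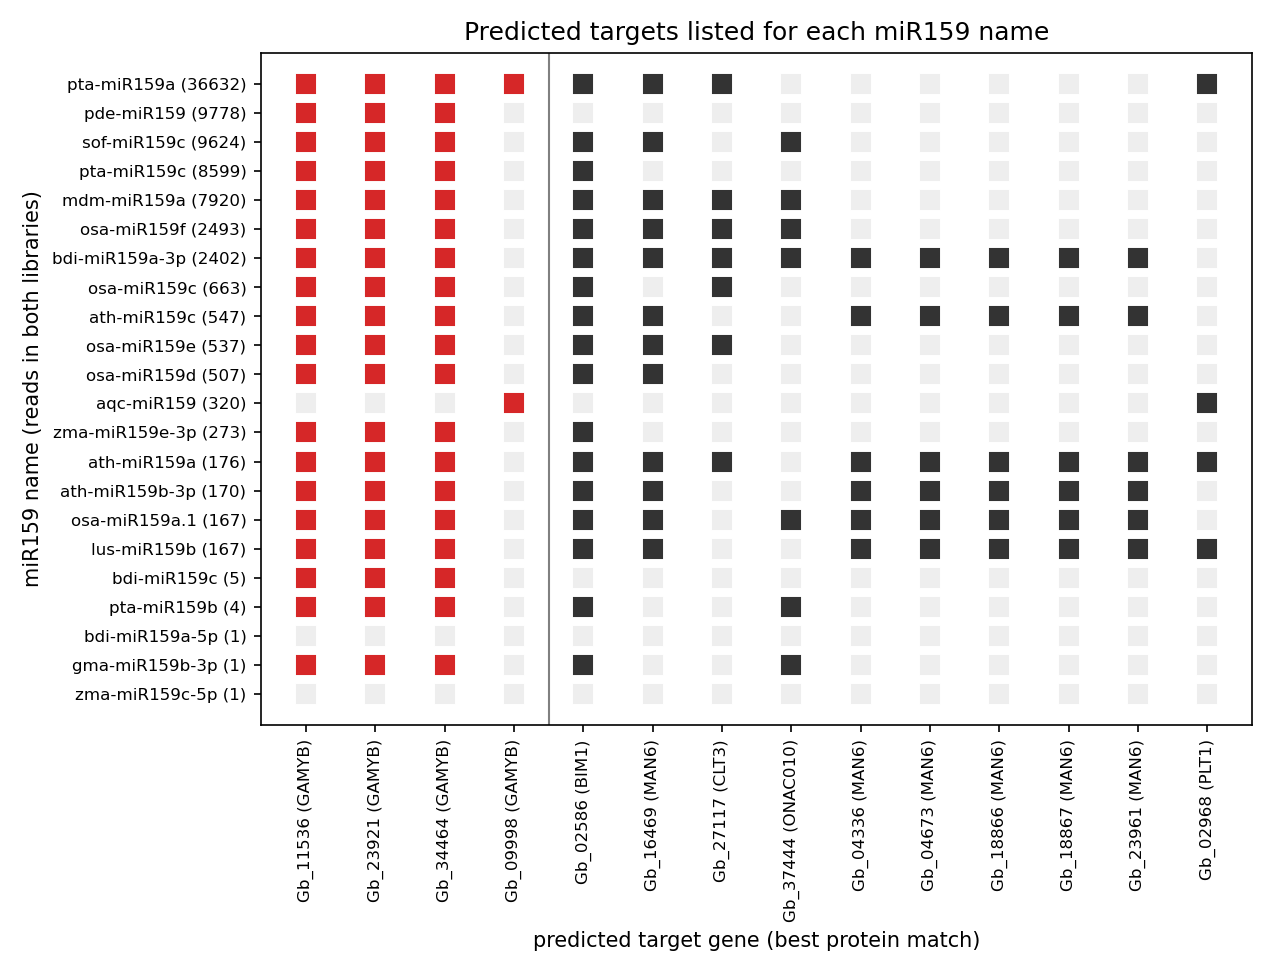
Predicted targets (columns, with the best protein match) listed for each of the 22 miR159 names (rows, with reads of both libraries in brackets); a dark square is a listed pair, red for the 4 GAMYB matches and black for the 10 other matched genes with the most names. 3 GAMYB matches are listed for 19 names each, and Gb_09998 for 2. Ties among the other matched genes were settled by gene ID.

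Other families were listed for the same GAMYB matches. Each of the 4 carried 5 miR319 names. Gb_09998 also carried 4 miR858 names, and Gb_34464 carried 2 miR858 names with 6 reads in all. Summed over every name listed for Gb_11536, the miRNAs stood at 20304 CPM in the green library and 25847 CPM in the yellow one. miR159 names made up 61.5% of that sum in green and 75.6% in yellow leaves, and miR319 names 24.8% and 9.09%. For Gb_23921 the listed names and sums were the same, and for Gb_34464 they differed by the 6 miR858 reads.

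For Gb_09998 the balance differed more between the libraries. The listed names summed to 10506 CPM in the green library and 11701 CPM in the yellow one. miR159 names held 49.6% of this in green and 79.8% in yellow leaves, miR319 names 48.0% and 20.1%, and miR858 names 2.41% and 0.104%. The shares need no scaling, but they add up names that may share reads. Levels of the GAMYB transcripts were not measured in these libraries.

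**Figure D5:**
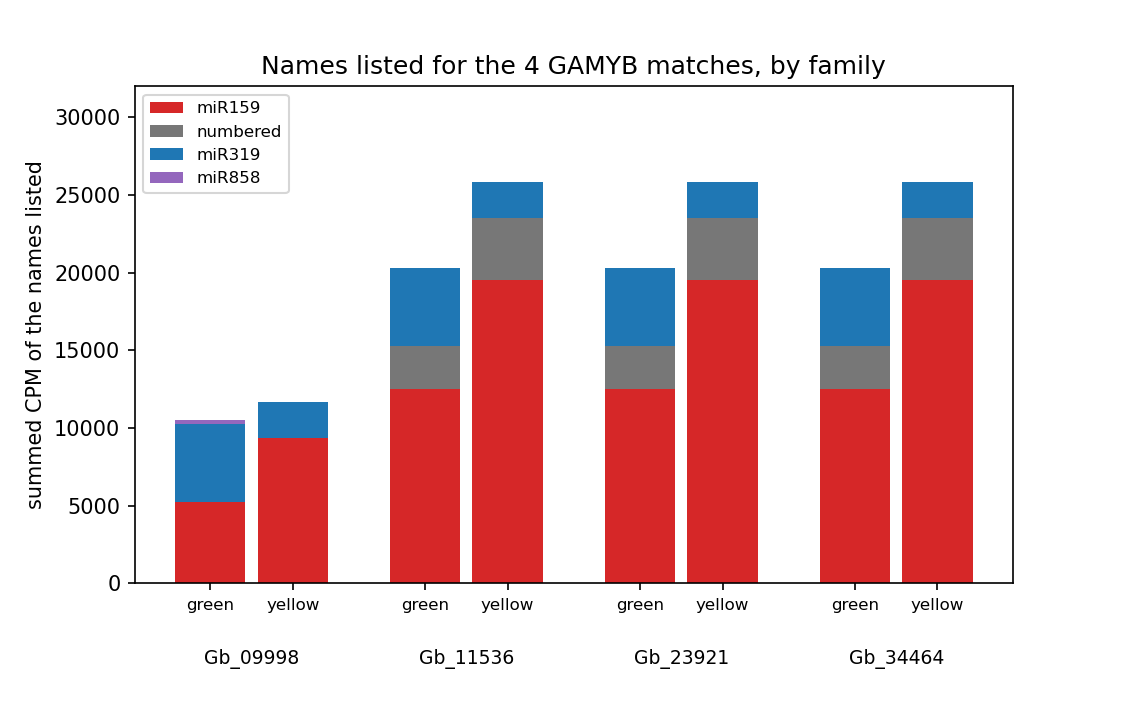
Summed CPM of all names listed for each of the 4 genes with a GAMYB match, in green and yellow leaves (1 library each), stacked by family; bars start at 0. miR159 is the largest part in each bar and reaches 79.8% for Gb_09998 in yellow leaves, where it was 49.6% in green.

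Among the numbered miRNAs, novel_31 and novel_68 shared the most genes with miR159, 8 each. novel_31 was listed for 9 genes, of which 8 were also listed for miR159 names, among them 3 of the GAMYB matches. Its list was most like that of pde-miR159, with 8 genes shared of 11 in either list. novel_31 had 5769 green-leaf and 11035 yellow-leaf reads, at 2767 and 3950 CPM, and its ratio of 1.43 (1.38 to 1.47) lay within the range of the miR159 names. All 8 genes of novel_68 were miR159 genes too, but it had 2 reads, both in yellow leaves. novel_31 was singled out after the values were seen.

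Besides the GAMYB matches, 7 of the 81 genes (8.64%) fell in a keyword class for transcription factors, against 3.98% of all genes in the target table. The class also takes zinc finger and homeobox descriptions. It included Gb_17764, a match to a CCCH zinc finger protein that is not described as a transcription factor. The matched genes listed for the most miR159 names are given here, and 4 genes with no match, listed for 8 to 11 names, ranked among them. Gb_02586, a match to BIM1, a helix-loop-helix protein of brassinosteroid signalling in Arabidopsis, was listed for 17 miR159 names. Gb_37444, a match to the rice NAC transcription factor ONAC010, was listed for 7. Gb_02968 matched PLT1, an AP2-like regulator of the root stem cell niche in Arabidopsis, and was listed for 4. Equally many miR159 names were listed for Gb_10972 (TIME FOR COFFEE), Gb_15265 (GATA transcription factor 9) and Gb_40478 (meiotic nuclear division protein 1 homolog). All 6 genes of the table with a match to MAN6, an endo-beta-mannanase that cuts mannan in cell walls, were miR159 targets. Gb_16469 was listed for 12 names, and Gb_04336, Gb_04673, Gb_18866, Gb_18867 and Gb_23961 for the same 6. Of these 6 matches, 4 had the same E-value of 3.61e-160 in the authors' deposited table, and whether the genes are near-identical copies was not tested. The 6 names were of low or middle abundance and held 4.91% of the family's reads in green and 4.28% in yellow leaves. Gb_27117, a match to CLT3, a chloroplast thiol transporter, was listed for 7 names that held 59.8% and 64.2%.

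Many listed genes rested on hardly any reads. 33 of the 81 genes were listed only for the 5 names with fewer than 20 reads, which left 48 genes for the counted names. bdi-miR159a-5p alone had 18 listed genes with 1 read, and none of the 18 genes listed for a 5p name was listed for another arm. Its genes included Gb_02806, a match to chloroplast heme oxygenase 1, which acts in synthesis of the phytochrome chromophore. gma-miR159b-3p, with 1 read, was the only miR159 name for Gb_27762, a match to phenylalanine ammonia-lyase, the entry enzyme of phenylpropanoid synthesis. It was also the only one for all 5 seed storage globulin matches. Gb_02806 and Gb_27762 were picked out after their matches were seen.

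17 of the 81 miR159 genes, or 21.0%, were also listed for miR319, which is 38.6% of the 44 miR319 genes. Besides those named above they included Gb_39627, a match to ERF12, an ethylene response factor, listed for 2 miR159 and 8 miR319 names. Gb_34683 matched the maize histone methyltransferase EZ1, and Gb_07857 matched GRXS15, a mitochondrial glutaredoxin. Gb_21369 matched LQY1, which acts in repair of photosystem II, and Gb_39209 matched CRS1, a splicing factor of chloroplast introns. Gb_25572 matched a receptor-like kinase and was listed for pta-miR159a and 6 miR319 names. Gb_41079, Gb_21350 and Gb_13494 had no match. Of the 4 genes that matched TCP proteins, none was listed for a miR159 name, and 1 was listed for a miR319 name.

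Among the counted names, aqc-miR159 had the lowest ratio and the target list least like those of other miR159 names. It was listed for 9 genes, 6 of them (66.7%) shared with miR319. Among the other counted names this share ran from 30.0% (pde-miR159) to 87.5% (sof-miR159c). The share with miR319 thus did not set aqc-miR159 apart. Among the miR159 and miR319 names, the list most like its own was that of ppt-miR319a, with 5 of 20 genes in common (25.0%), and ath-miR159a followed with 5 of 24 (20.8%). Both shared 5 genes with it, so their order rests on list length, 16 and 20 genes. For the other counted names the likeness to the nearest miR319 list ran from 17.6% (pde-miR159) to 38.1% (pta-miR159a). The 25.0% of aqc-miR159 lay inside this range. In the same comparison the list nearest to that of each of the other 21 miR159 names was that of another miR159 name. Numbered miRNAs could be nearer. novel_108, with 6 green-leaf and 4 yellow-leaf reads, shared 3 of 9 genes with aqc-miR159 (33.3%), and novel_68 and novel_31 were nearer to sof-miR159c and pde-miR159 than any miR159 name was. The ratio of aqc-miR159, 0.634, lay inside the range of the 7 miR319 names with at least 20 reads, 0.432 to 0.721. This name was singled out after its values were seen, and whether its reads belong to miR319 was not tested.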

How the data were processed

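Raw read counts per miRNA name, 1 column per library, were deposited by the authors, per the file headers. Per the submitters' processing notes Bowtie was used, its version and role unstated. For the genome build, the miRBase release and how reads were assigned to names, the sources used here give nothing. The deposited target table gives gene IDs, the miRNA names listed for each and the best protein match, and the sources used here do not say how targets were predicted. miRNA sequences and gene positions were not analysed here.

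Counts were scaled to the column total. Ratios carry 95% Clopper-Pearson intervals (scipy 1.17.1), tested on simulated data. The simulation drew independent Poisson counts per name. It therefore does not cover reads shared between names or reads that are not independent molecules. Odds ratios against pta-miR159a carry conditional exact intervals. The size rule asked for 20 reads in both libraries together, a 2-fold ratio and an interval without 1. Alternatives were TMM (edgeR 4.0.16), median of ratios (DESeq2 1.42.0), the total without the most-read name, other read and fold limits, and equal counts taken once. Every miR159 name was described, as were all GAMYB or MYB matches among the predicted miR159 targets. So were the 10 other matched genes with the most miR159 names, all genes shared with miR319, and the most-read name of miR319, miR828 and miR858. Ties among the 10 other matched genes were settled by gene ID. MYB matches were found by the letters MYB in the description. The members and lists were chosen with earlier results of these data known.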

Additional observations from a re-analysis of the deposited data

How the results depend on the processing

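The family's median log2 ratio of 0.36 became 0.83 under TMM, 0.79 under median of ratios and 0.63 when the total left out the most-read name, and the ratio of the summed reads became 2.155, 2.09 and 1.87. The most-read name alone gave 1.81, and equal counts taken once gave 1.56. No member was called higher by the total, against 4 by TMM, 4 by median of ratios, 1 when the most-read name was left out and 4 with a fold limit of 1.5, where 1 member, aqc-miR159, was called lower. With names that have at least 20 reads the 81 target genes became 48, and without the 5p names 63, the latter chosen after seeing the data, as was summing names by plant group, which gave no call. The 4 GAMYB matches stayed 4 under each alternative run. Leaving out little-read or 5p names could not change this, since pta-miR159a alone was listed for all 4. No paired analysis was possible because each leaf type has 1 library. For the same reason no library could be left out. At 3 or fewer reads per library, the 5 least-read names allow no statement on direction.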
